A study of Homo sapiens with 12 samples.

Results

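NTM, LSAMP, OPCML and NEGR1, 4 of the 58307 gene rows used here, are described in A375 and SK-MEL-28, established human melanoma cell lines. The 4 rows were taken by gene symbol, and each symbol had 1 row. They encode IgLON proteins, a family of neural cell adhesion molecules that was singled out after NTM had been seen to be higher with rapamycin, so the genes were chosen by the measured rise of NTM in the rapamycin comparison, and its values are given as a description and without a test. The cell lines were not compared to choose the genes, and that comparison was tested. It uses the same libraries as the rapamycin comparison, so for NTM the test is not free of the choice. Cells of each line were incubated with etoposide, a topoisomerase II poison, or with etoposide and rapamycin, an inhibitor of mTOR that was used to induce autophagy, and each of the 4 groups had 3 libraries of polyA RNA. All 12 libraries are from etoposide-treated cells, so the rapamycin comparison is always on top of etoposide, and cells without etoposide were not analysed here. Doses and times for these libraries are not given in the sources used here.

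IgLON proteins are short members of the immunoglobulin superfamily. Each has immunoglobulin-like domains and is held on the outer face of the cell membrane by a glycosylphosphatidylinositol (GPI) anchor, with no part inside the cell. They bind themselves and one another across and along membranes, and surface metalloproteinases can release them. They are best known in the nervous system, where they take part in neurite outgrowth and synapse formation. NTM encodes neurotrimin, LSAMP the limbic system-associated membrane protein, OPCML the opioid-binding cell adhesion molecule and NEGR1 neuronal growth regulator 1. The family has a further member, IGLON5, which was not among the 4 and is given as context.

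The 4 genes are long. In GENCODE release 44 on GRCh38, NTM (ENSG00000182667.15) lies on the plus strand at chr11:131370478-132336822, and OPCML (ENSG00000183715.15) lies on the minus strand at chr11:132414977-133532501. Their 3′ ends face each other across 78.15 kb. LSAMP (ENSG00000185565.13) is on the minus strand at chr3:115802374-117139389, and NEGR1 (ENSG00000172260.15) on the minus strand at chr1:71395943-72282539. The counts are per gene row and not per isoform, so they do not say which start site or isoform was used. NTM and OPCML share 171 words of 31 bases, of 7153 and 7649 in their transcripts, and no other pair among the 4 genes shares any. How the authors' counting divides reads from such shared stretches is not stated.

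RefSeq lists 5 start sites for NTM, 2 for OPCML and 1 for LSAMP, and 3 of the 4 genes had an entry. The 250 bases before 1 start site of each are shown, as the windows that touch no annotated exon, to set NTM and LSAMP, which were lower in SK-MEL-28, beside OPCML, whose level was low in both lines. They are written 5′ to 3′ on the gene's own strand in GRCh38.p14, with CpG dinucleotides in capitals. The windows are chr11:131585312-131585561 for NTM, chr3:116445488-116445737 for LSAMP and chr11:132943837-132944086 for OPCML.
NTM: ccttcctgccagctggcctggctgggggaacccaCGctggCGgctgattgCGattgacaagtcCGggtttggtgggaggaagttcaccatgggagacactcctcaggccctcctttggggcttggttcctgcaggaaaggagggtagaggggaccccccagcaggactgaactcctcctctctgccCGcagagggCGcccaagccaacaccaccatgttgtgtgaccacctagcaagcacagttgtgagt
LSAMP: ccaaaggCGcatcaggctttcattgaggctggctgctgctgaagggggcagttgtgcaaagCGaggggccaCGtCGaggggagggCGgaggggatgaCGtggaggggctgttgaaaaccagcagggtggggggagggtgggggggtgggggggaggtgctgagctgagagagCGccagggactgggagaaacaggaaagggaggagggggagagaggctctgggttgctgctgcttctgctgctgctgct
OPCML: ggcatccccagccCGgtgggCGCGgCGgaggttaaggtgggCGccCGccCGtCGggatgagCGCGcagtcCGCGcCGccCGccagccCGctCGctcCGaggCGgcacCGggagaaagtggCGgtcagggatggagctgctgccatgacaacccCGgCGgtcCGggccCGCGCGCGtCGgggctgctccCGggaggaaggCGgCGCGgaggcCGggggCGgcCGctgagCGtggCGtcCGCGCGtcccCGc
The NTM window held 6 CpG dinucleotides and the LSAMP window 7, below the median of 11 over 35116 RefSeq windows of this length. The OPCML window held 41, and 1.38% of all windows held more. These counts are of the windows shown and not of the genes, since the other NTM windows held 2 to 19 CpG dinucleotides and the other OPCML window 9. GC content was 61.6% for NTM, 65.2% for LSAMP and 79.6% for OPCML. Of the motifs searched on either strand, the E-box CACGTG was in 6.34% of all windows and the E-box CATGTG in 9.42%. The AP-1 motif TGACTCA was in 4.20%, the CRE motif TGACGTCA in 1.65% and the TATA box TATAAA in 10.7% of windows. None of these letters stood in the 3 windows shown. Of the windows not shown, 1 of NTM held TATAAA and that of OPCML held CACGTG.

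Library totals ranged from 28189501 to 32499337 counts. Levels are given as CPM, that is counts relative to the library total after scaling by the trimmed mean of M values (TMM). Replicate libraries of a group differed by more than sampling noise, with a chi-square per gene of 5.15 to 10.5 for each pair, so no library was a copy of another. The study describes the replicates of its RNA sequencing as biological. The labels do not say whether they came from separate cultures, and p-values measure only the spread between these libraries. Of the 8 melanocyte markers, the neural crest genes SOX10 (166 to 581 CPM) and S100B (56.9 to 106 CPM) were well detected and MITF, the melanocyte master regulator, reached 12.1 to 29.7 CPM. The pigment genes PMEL, MLANA, TYR, DCT and TYRP1 lay at or under 2.99 CPM in every library, those labelled SK-MEL-28 included. SK-MEL-28 is usually described as a line that expresses pigment genes, and these levels go against that description. The libraries were kept as labelled, and each comparison of the cell lines is one of libraries so labelled.

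NTM had the widest range of the 4 genes. In A375 it stood at 37.9, 35.3 and 40.0 CPM in the etoposide replicates, and at 87.6, 86.7 and 85.2 CPM in the etoposide + rapamycin replicates. In SK-MEL-28 it stood at 8.15, 8.38 and 7.15 CPM with etoposide, and at 37.8, 36.9 and 46.5 CPM with etoposide + rapamycin. Etoposide-treated SK-MEL-28 was lowest and A375 with rapamycin highest, and each of these groups lay clear of all others. The remaining groups, etoposide-treated A375 (37.8 ± 2.35 CPM, SD, n = 3) and rapamycin-treated SK-MEL-28 (40.4 ± 5.29 CPM), overlapped. Counts behind these levels ran from 236 to 2581 per library. In these bulk cultures a change in the number of NTM-expressing cells and a change in NTM RNA per cell cannot be told apart.

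LSAMP split by cell line. It was 40.5, 39.3 and 39.4 CPM in A375 with etoposide and 44.5, 50.5 and 46.7 CPM with etoposide + rapamycin. In SK-MEL-28 it was 7.59, 7.15 and 7.03 CPM with etoposide and 7.33, 6.53 and 5.66 CPM with etoposide + rapamycin. Every A375 library was above every SK-MEL-28 library, and the SK-MEL-28 groups overlapped.

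NEGR1 was low in all groups, at 60 to 130 counts per library. It was 3.76, 3.59 and 4.53 CPM in A375 with etoposide, and 3.79, 3.33 and 3.16 CPM with rapamycin added. SK-MEL-28 had 1.96, 2.42 and 2.27 CPM under etoposide and 2.87, 3.53 and 2.99 CPM with rapamycin added. The etoposide-treated SK-MEL-28 libraries lay below all others, and the rapamycin groups of the cell lines overlapped.

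OPCML was the lowest of the 4 genes, at 10 to 32 counts per library. In A375 its level was 0.654, 0.957 and 0.663 CPM under etoposide and 0.351, 0.336 and 0.840 CPM when rapamycin was present. The SK-MEL-28 libraries had 0.883, 1.06 and 0.364 CPM under etoposide and 0.904, 0.714 and 0.520 CPM when rapamycin was present. All 4 groups overlapped. IGLON5 was also low, with 8 to 27 counts per library and 0.286 to 0.949 CPM.

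**Figure D1:**
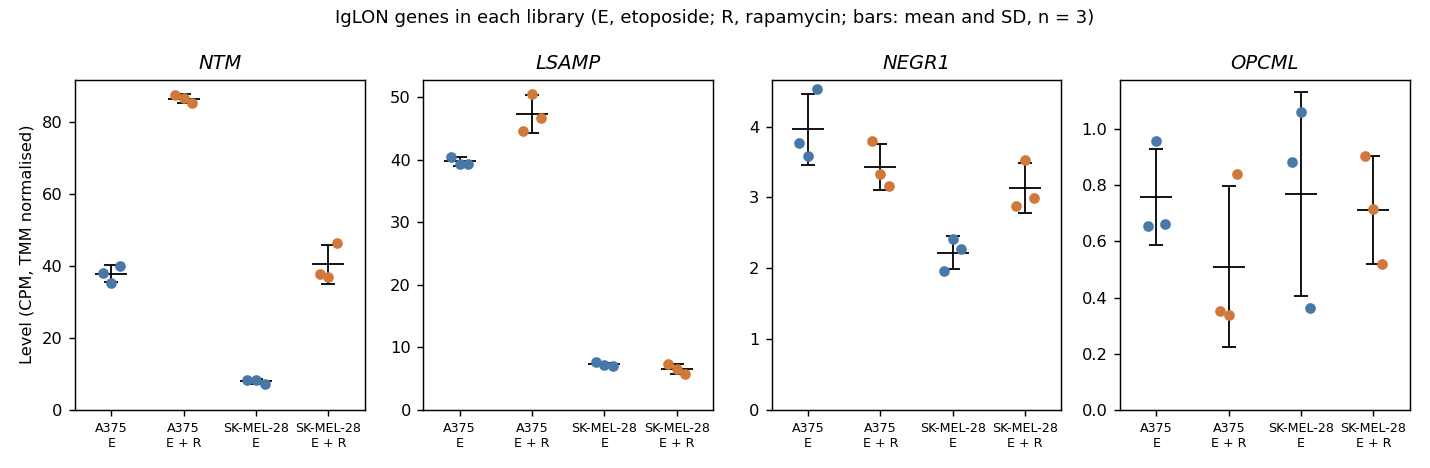
Level of NTM, LSAMP, NEGR1 and OPCML in CPM in each library (points), with the mean and SD of each group of 3 (bars); E is etoposide and R is rapamycin, and each panel has its own axis from 0. NTM was higher with rapamycin in both cell lines (37.8 to 86.5 CPM in A375 and 7.89 to 40.4 CPM in SK-MEL-28), LSAMP separated the cell lines, and the OPCML groups overlapped.

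Per exon length, the order of the genes was NTM, LSAMP, NEGR1 and OPCML in all 12 libraries. The level of the 4 genes together in A375 was 9.69 ± 0.364 CPM per kb of exon (SD, n = 3) under etoposide and 17.4 ± 0.283 when rapamycin was added. The SK-MEL-28 values were 2.11 ± 0.155 under etoposide and 6.77 ± 0.662 when rapamycin was added. NTM made up 56.0% of this length-scaled level in A375 with etoposide and 71.6% with rapamycin added. In SK-MEL-28 its share was 53.8% with etoposide and 85.6% with rapamycin added. In A375 the share of LSAMP went from 39.9% to 26.5%, and its SK-MEL-28 share from 33.6% to 9.48%. OPCML and NEGR1 each stayed at or under 8.91% in every library. With the length of the longest transcript in place of all exons, the NTM shares became 71.8%, 83.5%, 70.1% and 92.3% in the same order of groups, because the longest NTM transcript (3190 bases) is shorter than its joined exons (6956 bases). These shares follow from the NTM values that led to the choice of the genes and are descriptions.

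**Figure D2:**
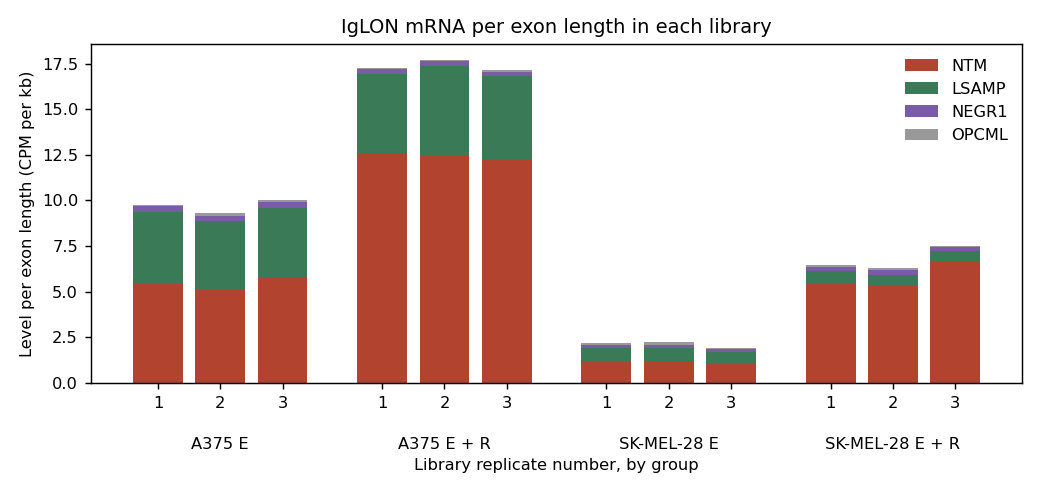
Level per exon length (CPM per kb) of the 4 IgLON genes stacked in each library, 3 replicates per group; E is etoposide and R is rapamycin. NTM was the largest segment in all 12 libraries, and its mean share was highest in SK-MEL-28 with etoposide + rapamycin, at 85.6%.

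Set against the other genes of the same libraries, NTM stood higher with rapamycin in both lines. In SK-MEL-28 with etoposide 33.8% of 17263 genes had a lower mean level per length than NTM, and with etoposide + rapamycin 63.9%. In A375 these values were 62.2% and 79.2%. LSAMP was above 54.5% and 58.1% of genes in A375, and its SK-MEL-28 values were 27.6% and 26.3%. NEGR1 stood above 10.7% to 16.6% of genes and OPCML above 4.49% to 6.74%.

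With rapamycin, NTM was 2.29-fold higher in A375 (log2 fold change 1.19, SE 0.06) and 5.11-fold higher in SK-MEL-28 (log2 2.35, SE 0.11). By log2 fold change it ranked 124 from the highest of 18844 genes in A375 and 6 from the highest of 18897 in SK-MEL-28. These values chose the gene, so no test is given and nothing further is read from them. Over all genes of A375, 5.89% passed an adjusted p under 0.05 with a fold change over 1.5, and 3.09% did so as higher. For SK-MEL-28 these shares were 4.99% and 1.85%. That 1 of the 4 genes, NTM, lay past this threshold in each line follows from how it was chosen and is no result about the family. With library totals in place of TMM, the A375 calls over all genes split into 468 higher and 659 lower, against 582 and 527 with TMM, and NTM was higher under both scalings.

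The other members had smaller log2 fold changes with rapamycin than NTM. LSAMP was 1.19-fold higher in A375 (log2 0.25, SE 0.06), where its groups did not overlap, and had a log2 fold change of -0.16 (SE 0.13) in SK-MEL-28, where they did. NEGR1 had a log2 fold change of -0.21 (SE 0.17) in A375 and of 0.49 (SE 0.19) in SK-MEL-28, where the groups did not overlap. OPCML had log2 fold changes of -0.57 (SE 0.44) and -0.10 (SE 0.42), and without replicate 3 of A375 etoposide + rapamycin, its highest library of that group, the A375 value was -1.13. The groups of 2 of the 4 genes did not overlap and were higher with rapamycin in each line, NTM and LSAMP in A375 and NTM and NEGR1 in SK-MEL-28. Over all genes 21.4% were higher without overlap in A375, and the share for SK-MEL-28 was 17.8%. The difference between the lines in the rapamycin log2 fold change, SK-MEL-28 minus A375, was 1.17 (SE 0.12) for NTM, 0.71 (SE 0.24) for NEGR1, -0.40 (SE 0.12) for LSAMP and 0.47 (SE 0.64) for OPCML, again as a description. Over all 20101 genes tested, 5.62% passed a test of that difference.

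IGLON5 did not pass the test in any comparison. Its log2 fold change with rapamycin was 0.42 in A375 (SE 0.36, adjusted p = 0.424) and -0.41 in SK-MEL-28 (SE 0.43, adjusted p = 0.564).

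Whether the cell lines differ in IgLON expression was tested within each treatment, on separate libraries. Under etoposide, 3 of the 4 genes were lower in SK-MEL-28 than in A375 and none was higher, where 13.0% of all 19025 genes passed and 7.32% were lower in SK-MEL-28. LSAMP was 5.49-fold lower (log2 fold change -2.46, SE 0.08, adjusted p = 1.51e-10) and NTM 4.81-fold lower (log2 -2.26, SE 0.09, adjusted p = 1.18e-09). NEGR1 was 1.79-fold lower (log2 -0.84, SE 0.19, adjusted p = 0.00407). The groups of these 3 genes did not overlap, which was so for 22.3% of all genes in this direction. OPCML did not pass (log2 0.01, adjusted p = 0.991), with a 95% interval of -0.81 to 0.82 from 1.96 SE, which spans more than a 1.5-fold difference either way.

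Under etoposide + rapamycin, 2 of the 4 genes were lower in SK-MEL-28, where 14.9% of all 18817 genes passed and 8.66% were lower. LSAMP was 7.27-fold lower (log2 -2.86, SE 0.10, adjusted p = 8.84e-11). NTM was 2.14-fold lower (log2 -1.10, SE 0.08, adjusted p = 1.01e-07), against -2.26 under etoposide alone. NEGR1 did not pass (log2 -0.13, adjusted p = 0.594, 95% interval -0.48 to 0.22), nor did OPCML (log2 0.48, adjusted p = 0.432, 95% interval -0.40 to 1.36). The groups of NTM and LSAMP did not overlap, as for 25.5% of all genes in this direction. The calls of NTM, LSAMP and NEGR1 under etoposide and of NTM and LSAMP under etoposide + rapamycin held with each library left out in turn. IGLON5 had a log2 fold change of -0.07 under etoposide (adjusted p = 0.918) and of -0.90 under etoposide + rapamycin (SE 0.40, adjusted p = 0.0948). Each rapamycin comparison and each cell line comparison shares a group of libraries with another, so their values are not independent of one another. For NTM, the cell line tests are thus not free of how the gene was chosen.

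**Figure D3:**
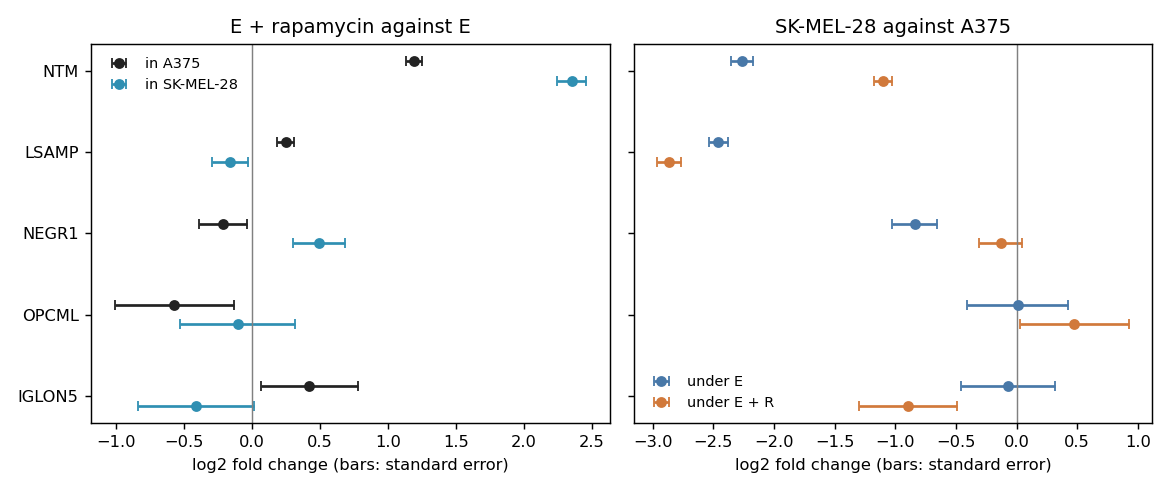
Log2 fold change of the 4 IgLON genes and IGLON5 with its standard error (bars), for etoposide + rapamycin against etoposide in each cell line (left) and for SK-MEL-28 against A375 within each treatment (right); E is etoposide and R is rapamycin. NTM lay at 1.19 and 2.35 on the left, and NTM and LSAMP lay below -1.0 in both treatments on the right.

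Over the 12 libraries, the genes whose log2 CPM followed NTM most closely were LRIG3 (Pearson r = 0.987), NFE2L3 (0.986), ZC3H12C (0.983), NT5E (0.982) and ATF3 (0.982). LRIG3 encodes a membrane protein with leucine-rich repeats and immunoglobulin-like domains, NFE2L3 and ATF3 are basic leucine zipper transcription factors, and NT5E (CD73) is a GPI-anchored ectoenzyme. For LRIG3 the log2 fold change with rapamycin was 0.33 (A375) and 1.23 (SK-MEL-28), smaller than those of NTM. The closest to LSAMP were PTGS2 (r = 0.998), which encodes cyclooxygenase 2, IGFBP3 (0.997), a binding protein of insulin-like growth factors, and CLMP (0.997), an adhesion molecule of the immunoglobulin superfamily. For NEGR1 they were LINC02367 (0.958) and FAM173B (0.937), and for OPCML COMMD1 (0.810), DYNC2LI1 (0.805) and COPS3 (0.804). The 12 points fall into 4 groups and share their libraries, so these correlations describe a pattern over the groups and carry no p. Among the members, r was 0.759 for NTM and NEGR1, 0.676 for LSAMP and NEGR1, 0.656 for NTM and LSAMP and -0.295 for NTM and OPCML.

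The rows of transcripts that overlap the IgLON genes held few counts. Of 7 listed noncoding genes, NTM-AS1, NTM-IT, OPCML-IT2 and NEGR1-IT1 had no count in any library. LSAMP-AS1 had 23 counts over 10 libraries, OPCML-IT1 21 over 5 and TUSC7 6 over 2. None of the 7 passed the filter on low counts. The strand setting of the authors' counting is not stated, so reads of a gene and of an antisense transcript within it cannot be told apart.

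Other adhesion genes of the immunoglobulin superfamily moved in both directions with rapamycin in A375. Of 49 listed, 40 were tested in A375, where 3 were higher with rapamycin, 3 were lower and the median log2 fold change was -0.05, against -0.01 over all genes. The called share was 15%, against 5.89% of all genes. CNTN1 (contactin 1, a GPI-anchored axonal protein) fell 2.67-fold and CADM3 (a synaptic cell adhesion molecule) fell 2.53-fold, the latter from 16.2 to 6.42 CPM. NECTIN4, an adherens junction nectin, fell 1.88-fold. IGSF9B, a synaptic adhesion gene near OPCML, rose 1.72-fold, MDGA1, a GPI-anchored regulator of synapse formation, 1.61-fold, and SDK1, a homophilic adhesion gene, 1.64-fold. SDK1 no longer passed when A375 etoposide replicate 2 (adjusted p = 0.0951) or 3 (0.0876) was left out, nor when A375 etoposide + rapamycin replicate 1 (0.0623) or 3 (0.105) was.

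In SK-MEL-28, 40 of these genes were tested, none was higher at the threshold and 4 were lower, with a median of -0.11 against 0.01 over all genes. The called share was 10%, against 4.99% of all genes. CADM3 fell 2.60-fold, CNTN1 1.90-fold, L1CAM, a neural adhesion gene, 1.79-fold and NECTIN4 1.58-fold. Without etoposide + rapamycin replicate 1, NECTIN4 fell by 0.55 on the log2 scale and no longer passed the fold threshold. CNTN1, CADM3 and NECTIN4 were thus called lower in both lines, in which NTM was higher. Between the cell lines, 5 of 42 tested were higher and 7 lower in SK-MEL-28 under etoposide (median -0.07), and 5 and 7 of 40 under etoposide + rapamycin (median -0.04). The called shares were 28.6% and 30%, against 13.0% and 14.9% of all genes. Under etoposide NCAM1, the neural cell adhesion molecule, was 6.57-fold lower, MDGA1 4.82-fold lower, JAM2, a junctional adhesion molecule, 3.90-fold lower and SDK1 2.76-fold higher. JAM2 rested on mean counts of 31 (A375) and 8 (SK-MEL-28) per library, and its call was lost without A375 etoposide replicate 3 (adjusted p = 0.0567). Under etoposide + rapamycin MDGA1 was 5.76-fold, NCAM1 5.00-fold, IGSF9B 4.07-fold and NFASC, or neurofascin, 3.85-fold lower.

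**Figure D4:**
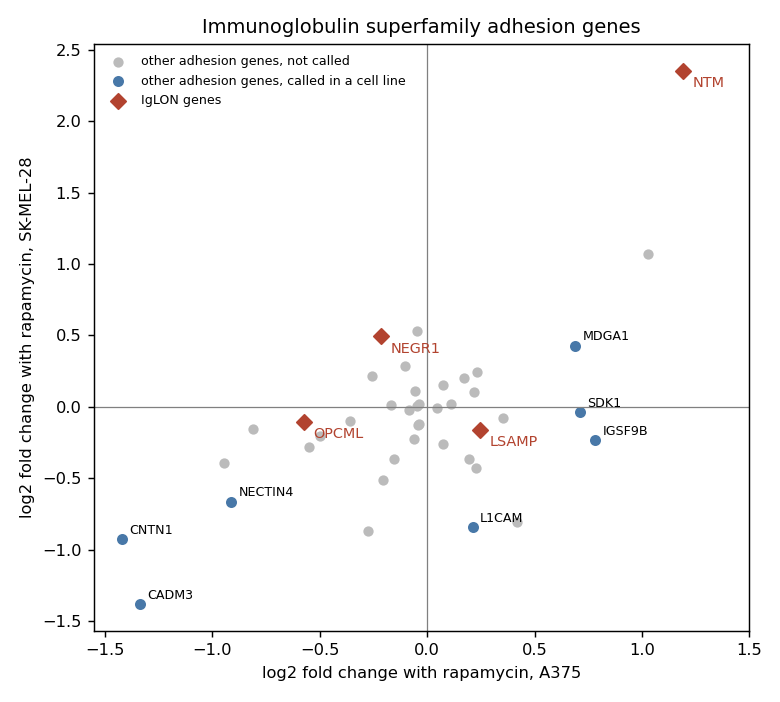
Log2 fold change with rapamycin in A375 (horizontal axis) and SK-MEL-28 (vertical axis) for 38 other immunoglobulin superfamily adhesion genes tested in both lines (circles, blue where the gene passed in a line) and the 4 IgLON genes (diamonds). NTM lay at 1.19 and 2.35, while CNTN1 and CADM3 lay below 0 in both lines.

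The genes that build the GPI anchor of IgLON proteins mostly did not pass. Of 29 listed, 28 were tested in each line. In A375, PGAP1, which remodels the anchor lipid, fell 1.52-fold (adjusted p = 0.00361) and none rose, with a median of -0.10. That fall came to 0.46 on the log2 scale without etoposide replicate 3, and to 0.53 without etoposide + rapamycin replicate 3, both under the fold threshold. In SK-MEL-28, PIGA, a subunit of the enzyme for the initial step, fell 1.54-fold (adjusted p = 0.000261), and the median was 0.06. The called share with rapamycin was 3.57% in each line, against 5.89% (A375) and 4.99% (SK-MEL-28) of all genes. Between the cell lines, PIGC was 1.69-fold lower in SK-MEL-28 under etoposide, and PGAP1 (1.72-fold) and PIGX (1.57-fold) were higher under etoposide + rapamycin, with medians of -0.07 and 0.01. The called shares were 3.57% and 7.14%, against 13.0% and 14.9% of all genes.

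The listed metalloproteinases, not all of them bound to the cell surface, and their inhibitors changed in both directions. In A375, 2 of 18 tested were higher with rapamycin and 1 was lower (median 0.08), a called share of 16.7% against 5.89% of all genes. MMP9, a gelatinase, rose 3.44-fold, from 9.43 to 32.5 CPM, ADAM8 rose 1.73-fold and ADAM19 fell 1.71-fold. In SK-MEL-28, 1 of 19 was higher and 4 were lower (median -0.05), a called share of 26.3% against 4.99% of all genes. There MMP3, or stromelysin 1, fell 5.18-fold, ADAM12 2.42-fold, ADAM19 1.80-fold and MMP1, a collagenase, 1.58-fold. MMP9 rose 1.57-fold (adjusted p = 0.0336). That call held without SK-MEL-28 etoposide + rapamycin replicate 1 and was lost without any other single library. Its log2 fold change was 0.47 without etoposide + rapamycin replicate 3, 0.56 without etoposide replicate 3 and 0.68 to 0.73 in the other cases of a lost call. Between the lines, 2 of 19 were higher and 2 lower in SK-MEL-28 under etoposide (median 0.19), and 4 and 3 under etoposide + rapamycin (median -0.05). The called shares were 21.1% and 36.8%, against 13.0% and 14.9% of all genes. Under etoposide MMP3 was 26.9-fold higher, from 0.190 to 5.28 CPM with a mean of 6 counts per library in A375. TIMP1, an inhibitor of these enzymes, was 3.35-fold lower, MMP9 3.24-fold lower and RECK, a GPI-anchored inhibitor, was higher by 1.07 on the log2 scale. Under etoposide + rapamycin RECK was 1.82-fold higher, and MMP9 7.06-fold and TIMP1 2.91-fold lower. There MMP3 was 8.62-fold higher (log2 3.11, SE 0.66) on a mean of 3.33 counts per library in A375, and its log2 fold change was 3.83 without A375 etoposide + rapamycin replicate 1 and 2.53 to 3.38 without any other single library of these groups.

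Most genes near the IgLON genes did not pass. Of 38 protein-coding genes within 2 Mb of a member, 30 were tested in each line, 2 were higher and none was lower with rapamycin in each, with a median of 0.01 for A375 and of -0.01 for SK-MEL-28. The called share was 6.67% in each line, against 5.89% (A375) and 4.99% (SK-MEL-28) of all genes. Of all genes 3.09% and 1.85% were called higher. B3GAT1, which lies on the OPCML side and encodes an enzyme that makes the HNK-1 carbohydrate of neural adhesion proteins, rose in both lines, 1.68-fold in A375 (17.8 to 29.9 CPM, adjusted p = 3.86e-05) and 1.73-fold in SK-MEL-28 (6.28 to 10.9 CPM, adjusted p = 0.000587). The other 2 calls were IGSF9B in A375, given with the adhesion genes, and GAP43, a growth cone gene next to LSAMP, in SK-MEL-28 (1.84-fold, adjusted p = 0.0349). The GAP43 call rested on mean counts of 41 (etoposide) and 72 (etoposide + rapamycin) per library and was lost without SK-MEL-28 etoposide replicate 1 (0.102) or 3 (0.101), and without etoposide + rapamycin replicate 1 (0.148) or 2 (0.0568). B3GAT1 was also 2.84-fold lower in SK-MEL-28 than in A375 under etoposide and 2.74-fold lower under etoposide + rapamycin. Under etoposide 4 of 30 neighbours were lower in SK-MEL-28 and none higher (B3GAT1, ADAMTS15, IGSF9B and GRAMD1C, median of all 30 at -0.002). Under etoposide + rapamycin 4 of 29 were lower (IGSF9B, B3GAT1, ADAMTS15 and GLB1L2, median of all 29 at -0.05). Called shares were 13.3% and 13.8%, all lower. Of all genes 13.0% and 14.9% were called, and 7.32% and 8.66% were called lower.

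**Figure D5:**
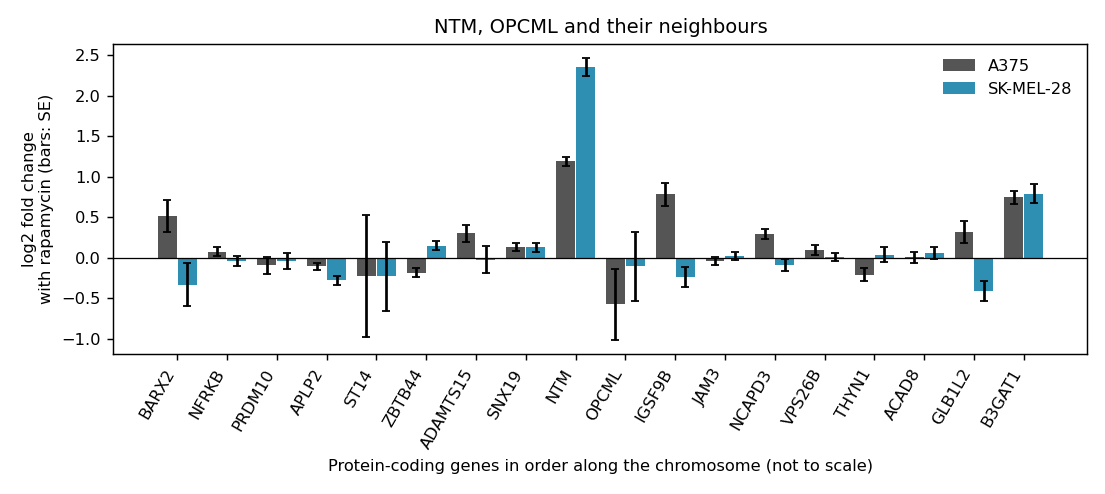
Log2 fold change with rapamycin and its standard error for NTM, OPCML and the 16 tested protein-coding genes within 2 Mb of them, in order along the chromosome and not to scale, in A375 (dark bars) and SK-MEL-28 (blue bars). Next to NTM, SNX19 and OPCML stayed near or below 0.13, while B3GAT1 at the right end rose in both lines.

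Markers of other cell types were partly detected, each sum being carried by 1 or a few genes. The summed level of 10 markers of neurons, the cells in which IgLON genes are best known, was 129 to 134 CPM in A375 with etoposide and 68.5 to 71.3 CPM with rapamycin added. In SK-MEL-28 it was 137 to 152 CPM and 68.1 to 70.8 CPM, so the sum was lower where NTM was higher. NEFL, a neurofilament gene, carried most of it (53.6 to 134 CPM), and its mean was 117 CPM and, with rapamycin added, 56.8 CPM in A375, and 126 and 56.5 CPM in SK-MEL-28. The other neuron markers went in both directions. SNAP25 had lower means with rapamycin, at 2.77 and 0.568 CPM in A375 and 2.51 and 0.399 CPM in SK-MEL-28. SYT1 was also lower, at 4.38 and 3.65 CPM in A375 and 8.44 and 5.29 CPM in SK-MEL-28. RBFOX3 and GAP43 had higher means with rapamycin, as did MAP2, which stayed at or under 0.788 CPM. The RBFOX3 groups overlapped in SK-MEL-28, and GAP43 did not pass in A375 (adjusted p = 0.170). RBFOX3 was at 1.11 and 2.70 CPM in A375 and 0.797 and 1.03 CPM in SK-MEL-28, and GAP43 at 1.74 and 2.44 CPM in A375 and 1.31 and 2.40 CPM in SK-MEL-28. The defining markers STMN2 and ELAVL4 lay at 0 to 0.386 CPM, and 3 to 5 of the 10 were under 1 CPM throughout a group. The part of these markers in the NTM values was not tested. The summed level of 8 fibroblast markers was 25.6 to 34.8 CPM (A375) and 41.2 to 54.6 CPM (SK-MEL-28), with most of it from LUM (3.93 to 28.9 CPM over the libraries) and PDGFRB (11.1 to 21.2 CPM), while COL1A2 and COL3A1 lay at or under 0.364 CPM and 2 or 3 of the 8 were under 1 CPM throughout a group. The 6 keratinocyte and epithelial markers summed to 48.5 to 72.8 CPM, mostly KRT10, with KRT5, KRT1, EPCAM and CDH1 at or under 0.571 CPM. The 6 endothelial and blood cell markers summed to 25.2 to 58.8 CPM, mostly CD68, with CDH5, PTPRC and CD3E at or under 0.849 CPM.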

How the data were processed

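RNA of 12 samples was sequenced from polyA-enriched libraries. The authors aligned reads with HISAT2 2.2.0, converted alignments with Samtools 1.3.1, estimated expression with StringTie 2.1.4 on the Ensembl 90 annotation of GRCh38, and deposited raw counts as whole numbers, neither normalized nor pooled. How coverage became counts is not given in the sources used here. The rows of NTM, LSAMP and NEGR1 carry identifiers with the prefix MSTRG, and the OPCML row an Ensembl identifier. The exons counted in MSTRG rows are not given, while gene lengths came from GENCODE release 44. Of 58312 rows, 5 named no gene (0.000991% to 0.00529% of a library's counts) and were left out. Rows were matched to GENCODE release 44 by identifier (28176), symbol (19590) or older symbol (700), and 9841 were not. Promoter windows came from RefSeq (GRCh38.p14).

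Each comparison was fitted on its own 6 libraries with edgeR 4.0.16 in R 4.3.3 (filterByExpr with a minimum count of 10, TMM, quasi-likelihood test), and the difference between cell lines on all 12. P-values were adjusted by Benjamini-Hochberg over all genes tested, and a call needed both an adjusted p under 0.05 and more than a 1.5-fold change, with no fold threshold for the difference between lines. Correlations used log2 CPM with a prior count of 2, over genes with a mean of at least 100 counts. Depth limits OPCML and IGLON5 most.

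The IgLON genes and the lists (IGLON5, overlapping transcripts, other adhesion genes, GPI anchor genes, metalloproteinases, neighbours within 2 Mb, cell type markers) were chosen with earlier results of these data known. Genes were named by rule: members, IGLON5 and overlapping transcripts, up to 4 called genes per list and comparison with the largest changes, called neighbours, the 5 genes most like NTM and 3 most like each other member (1 of these is not reported here), and markers at the ends of their lists. In A375, SDK1 and MDGA1, and in SK-MEL-28 MMP9, fall outside it for the rapamycin comparison, as do the motifs and other markers, and were named after their values were seen. Alternatives were DESeq2 1.42.0, RLE size factors, library totals, filters of 1 count in any and 10 counts in every library, no fold threshold, a joint fit, a replicate block, rows of 1 symbol summed, the longest transcript as length, and each library left out.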

Additional observations from a re-analysis of the deposited data

Results flagged for a closer look

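The rapamycin response of 14 context genes among those named by rule differed between the cell lines by the interaction term (edgeR, adjusted p under 0.05, where 5.62% of 20101 genes passed). A further 7 genes of the lists passed and fall outside the naming rule. The called shares were 16.3% of 43 adhesion genes tested, 10.7% of 28 GPI anchor genes and 42.1% of 19 metalloproteinases and inhibitors. For neighbours the share was 13.3% of 30, with IGSF9B counted in that list and among the adhesion genes. Values are the log2 fold change with rapamycin in SK-MEL-28 minus that in A375.

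Among adhesion genes, L1CAM differed by -1.05 (adjusted p = 1.74e-06), with a log2 fold change of 0.21 (A375) and -0.84 (SK-MEL-28). IGSF9B differed by -1.01 (adjusted p = 0.00903), at 0.78 and -0.23. CADM1, a synaptic and epithelial adhesion gene, differed by 0.58 (adjusted p = 0.000407), at -0.05 and 0.53. NFASC differed by -0.65 (adjusted p = 0.0475), which held without A375 etoposide replicate 1 or SK-MEL-28 etoposide + rapamycin replicate 1 and was lost without any other single library (adjusted p up to 0.118).

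Among GPI anchor genes, PIGF differed by 0.72 (adjusted p = 0.00692), at -0.57 and 0.14, and PIGC by 0.47 (adjusted p = 0.00801), at -0.03 and 0.43. PIGB differed by 0.44 (adjusted p = 0.0400), which held without SK-MEL-28 etoposide replicate 1 or etoposide + rapamycin replicate 3 and was lost without any other single library (adjusted p up to 0.108).

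Among metalloproteinases, MMP9 differed by -1.12 (adjusted p = 0.00393), at 1.78 and 0.66, and MMP1 by -0.96 (adjusted p = 0.0166), at 0.31 and -0.66. ADAM12 differed by -0.76 (adjusted p = 0.00309), at -0.50 and -1.27, and ADAM15 by -0.51 (adjusted p = 0.000165), at 0.23 and -0.29.

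Among neighbours, GLB1L2, near OPCML, differed by -0.71 (adjusted p = 0.0307), which was lost without A375 etoposide replicate 3, A375 etoposide + rapamycin replicate 1 or 2, SK-MEL-28 etoposide replicate 3 or any SK-MEL-28 etoposide + rapamycin library (adjusted p up to 0.0870). FPGT, near NEGR1, differed by 0.49 (adjusted p = 0.0467), which held only without SK-MEL-28 etoposide replicate 1 when single libraries were left out (adjusted p up to 0.125). ZBTB44, near NTM, differed by 0.34 (adjusted p = 0.0213), which was lost without replicate 3 of either A375 group or SK-MEL-28 etoposide replicate 2 (adjusted p up to 0.0708).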

How the results depend on the processing

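The counts of IgLON genes called lower in SK-MEL-28 were the same, 3 under etoposide and 2 under etoposide + rapamycin, under every alternative run, with log2 values from -2.31 to -2.19 (NTM), -2.49 to -2.43 (LSAMP) and -0.91 to -0.73 (NEGR1) under etoposide and from -1.22 to -1.04 (NTM) and -2.96 to -2.77 (LSAMP) under etoposide + rapamycin. Leaving out single libraries moved the NTM log2 fold change with rapamycin from 1.15 to 1.24 in A375 and from 2.24 to 2.42 in SK-MEL-28. A filter of 10 counts in every library left no value for OPCML or IGLON5 in some comparisons. No alternative reversed a called result. With 1 count in any library as the filter, adjusted p passed 0.05 for SDK1 in A375 (0.0869), MMP9 (0.0896) and GAP43 (0.0831) in SK-MEL-28, and, for the difference between lines, NFASC (0.0993), PIGB (0.0847), GLB1L2 (0.0655) and FPGT (0.111). NFASC also lost its call with library totals (0.0520), and FPGT with RLE (0.0530), 10 counts in every library (0.0540) and summed rows (0.0501). With no fold threshold, calls rose to 5295 in A375, 3582 in SK-MEL-28, 6037 between lines under etoposide and 7597 under etoposide + rapamycin. Genes whose response differed between lines numbered 1699 with DESeq2 and 658 when 1 count in any library was enough to be tested, against 1130. With single libraries left out, calls ranged from 913 to 1202 (A375), 816 to 954 (SK-MEL-28), 2264 to 2366 and 2569 to 2748 (between lines), and 594 to 1315 for the difference. That last count fell most without A375 etoposide replicate 3 (642), A375 etoposide + rapamycin replicate 3 (594), SK-MEL-28 etoposide replicate 2 (616) or 3 (705), or SK-MEL-28 etoposide + rapamycin replicate 2 (710). The cause was not tested. With the longest transcript as length, NTM per kb was 11.8, 27.1, 2.47 and 12.7 CPM.

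The labels give the groups the same replicate numbers. Deviations of same-numbered libraries correlated at -0.030 to 0.021 over 12 pairs, and at most 2 of 6 libraries in a comparison lay closest to their own number. No pairing by number was thus seen. With 3 libraries per group this cannot exclude that same-numbered libraries were handled together, and the labels do not say. With the replicate block, calls numbered 1034 in A375, 897 in SK-MEL-28, 2423 and 2755 between lines and 1054 for the difference, with 3 and 2 IgLON genes called as before. Under the block, FPGT (adjusted p = 0.0573) and PIGB (0.0541) no longer passed for the difference between lines, nor did MMP9 (0.0583) and GAP43 for rapamycin in SK-MEL-28. GAP43 stayed over the fold threshold there (log2 0.86), so its call was lost on the adjusted p. Depth limits OPCML (10 to 32 counts) and IGLON5 (8 to 27).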
